A study of Mus musculus with 7 samples.

Results

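Effector cytokines, chemokines and T-box transcription factors were examined in mouse T-cell leukemias through 8 genes: Ifng, Il2, Ccl3, Ccl4, Ccl5, Xcl1, Tbx21 and Eomes. Every probe set annotated to exactly 1 of these symbols was taken, which gave 9 of the 45037 probe sets on the arrays, 2 for Eomes and 1 for each other gene. A further probe set shared by Il2 and Ntan1 was left out because it names several genes. The series held 7 arrays of cell suspensions from terminally ill leukemic C57Bl/6 mice, 1 array per suspension. The 4 TEL-JAK2 arrays came from leukemic thymus, and their oncogene, a fusion of TEL to JAK2, keeps the JAK2 kinase constitutively active. The 3 ICN1 arrays came from leukemic bone marrow, and their oncogene ICN1 is the intracellular fragment of NOTCH1, which signals without ligand. Genotype and tissue form a single split, so they cannot be told apart. No healthy control, treatment, age or sorting step is given in the labels, nor the promoter that drove either oncogene. The titles carry separate identifiers, but whether each array is a separate animal is not stated, so the p-values reflect only how far these arrays spread, which may be technical. Replicate numbers follow accession order and only name an array.

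The genes encode the output of type 1 effector lymphocytes. Activated Th1, CD8 and NK cells secrete interferon-gamma and the chemokines of the group, and the T-box factors T-bet (Tbx21) and Eomes switch on Ifng and cytotoxic genes in these cells. Interferon-gamma acts through JAK kinases on neighbouring cells, where it induces guanylate-binding proteins, immunity-related GTPases and chemokines, whereas resting and immature thymocytes are not known for making these effector products. Macrophages and dendritic cells can also make Ccl3, Ccl4 and Ccl5.

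Values are log2 expression as deposited after RMA, in which 25% of all values on the 7 arrays lay below 4.11 and the medians of single arrays lay between 5.44 and 5.5. T-lineage markers were high on all arrays, with Cd3d, a subunit of the T cell receptor complex, between 13.61 and 13.90 in TEL-JAK2 and between 13.08 and 13.35 in ICN1. ICN1 replicates 1 and 2 carried both Xist (11.51 and 11.78) and the Y-linked Kdm5d (7.73 and 7.99), so results are also given without these 2 arrays. TEL-JAK2 replicate 4 carried Kdm5d (7.60) with Xist at 5.19, and the other 3 TEL-JAK2 arrays and ICN1 replicate 3 carried Xist with Kdm5d between 2.64 and 3.42. All 7 erythroid markers were called lower in TEL-JAK2 (limma adjusted p under 0.05), against 11.7% of 18193 genes, each by its brightest probe set. The list mean was 5.10 to 5.82 in TEL-JAK2 and 12.12 to 12.42 in ICN1. In suspensions of mixed cells, fewer cells of a type and less RNA per cell cannot be told apart.

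RefSeq promoter sequences were present for 6 of the 8 genes (all but Ccl4 and Ccl5). The 250 bases before the start are shown for Ifng, Tbx21, Ccl3 and Xcl1, which were highest on TEL-JAK2 replicates 2 and 4. Il2, which was low on every array, is also shown. The Eomes window is not shown, although Eomes was also highest on TEL-JAK2 replicates 2 and 4. The sequences come from assembly GRCm38.p6 and run 5′ to 3′ along the gene. Capitals mark every match, on both strands, to the STAT motif TTCNNNGAA, the T-box motif core GTGTGA or the NFAT motif core GGAAA. No match overlapped another.
Ifng (chr10:118440796-118441045, plus strand): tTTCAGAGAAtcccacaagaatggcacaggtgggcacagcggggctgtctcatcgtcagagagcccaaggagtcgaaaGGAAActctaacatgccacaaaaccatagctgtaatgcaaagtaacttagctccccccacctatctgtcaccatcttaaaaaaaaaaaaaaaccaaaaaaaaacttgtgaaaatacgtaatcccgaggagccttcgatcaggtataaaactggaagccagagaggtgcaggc
Tbx21 (chr11:97115332-97115581, minus strand): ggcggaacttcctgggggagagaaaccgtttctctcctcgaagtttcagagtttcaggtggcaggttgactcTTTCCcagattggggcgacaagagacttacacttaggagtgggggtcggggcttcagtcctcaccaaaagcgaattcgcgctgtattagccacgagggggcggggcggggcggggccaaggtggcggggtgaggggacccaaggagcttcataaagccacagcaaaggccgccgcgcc
Ccl3 (chr11:83649379-83649628, minus strand): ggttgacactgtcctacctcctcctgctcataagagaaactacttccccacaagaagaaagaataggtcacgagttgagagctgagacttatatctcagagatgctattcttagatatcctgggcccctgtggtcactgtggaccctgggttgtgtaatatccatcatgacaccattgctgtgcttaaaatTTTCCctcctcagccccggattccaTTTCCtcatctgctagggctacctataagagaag
Xcl1 (chr1:164935523-164935772, minus strand): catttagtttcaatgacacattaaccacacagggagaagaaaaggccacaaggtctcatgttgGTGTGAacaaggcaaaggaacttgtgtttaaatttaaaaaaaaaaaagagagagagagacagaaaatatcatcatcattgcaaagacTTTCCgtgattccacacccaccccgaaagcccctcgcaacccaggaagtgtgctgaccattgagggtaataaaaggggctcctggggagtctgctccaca
Il2 (chr3:37125955-37126204, minus strand): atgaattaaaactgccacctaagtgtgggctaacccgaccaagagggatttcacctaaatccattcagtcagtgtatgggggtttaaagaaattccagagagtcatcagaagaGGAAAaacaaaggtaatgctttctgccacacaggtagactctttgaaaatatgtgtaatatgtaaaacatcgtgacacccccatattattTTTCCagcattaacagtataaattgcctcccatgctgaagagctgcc
The STAT motif occurred once, in Ifng, 249 to 241 bases before the start, and in 7.02% of 32851 promoter windows of the same length. The T-box core occurred once, in Xcl1, 187 to 182 bases before the start, and in 12.3% of the windows. The NFAT core matched in all 5 sequences shown, with 2 matches each in Ccl3 and Il2, and in 55.6% of the windows. The Eomes window held no match to any of the motifs, which says only that these letters are not in it.

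Several of the effector genes were high on some TEL-JAK2 arrays and low on others, whereas Il2 was low on every array. Of the 9 probe sets 8 had a positive difference, but 1 was called higher in TEL-JAK2 by limma at an adjusted p under 0.05 over all probe sets (Ccl4) and 8 were not called. Over the whole array 19.6% of probe sets were called, 9.26% higher and 10.3% lower. A share of 1 in 9 is thus near the background. The median difference was 0.87 for the 9 probe sets and 0.035 for all 45037. The groups did not overlap in 2 of the 9 (Ccl4 and Xcl1), against 30.7% of all probe sets. Without ICN1 replicates 1 and 2, the log2 differences ran from 0.01 for Il2 to 2.67 for Ifng. That fit keeps 1 ICN1 array, whose spread is assumed to be that of the TEL-JAK2 arrays. On all 7 arrays, Ccl4 and Xcl1 were also the ones with an unadjusted p under 0.05 by limma, which 32.4% of all probe sets had. Differences below are TEL-JAK2 minus ICN1 ± the fitted standard error (SE), for n = 4 TEL-JAK2 and n = 3 ICN1 arrays, and the adjusted p is limma's.

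**Figure D1:**
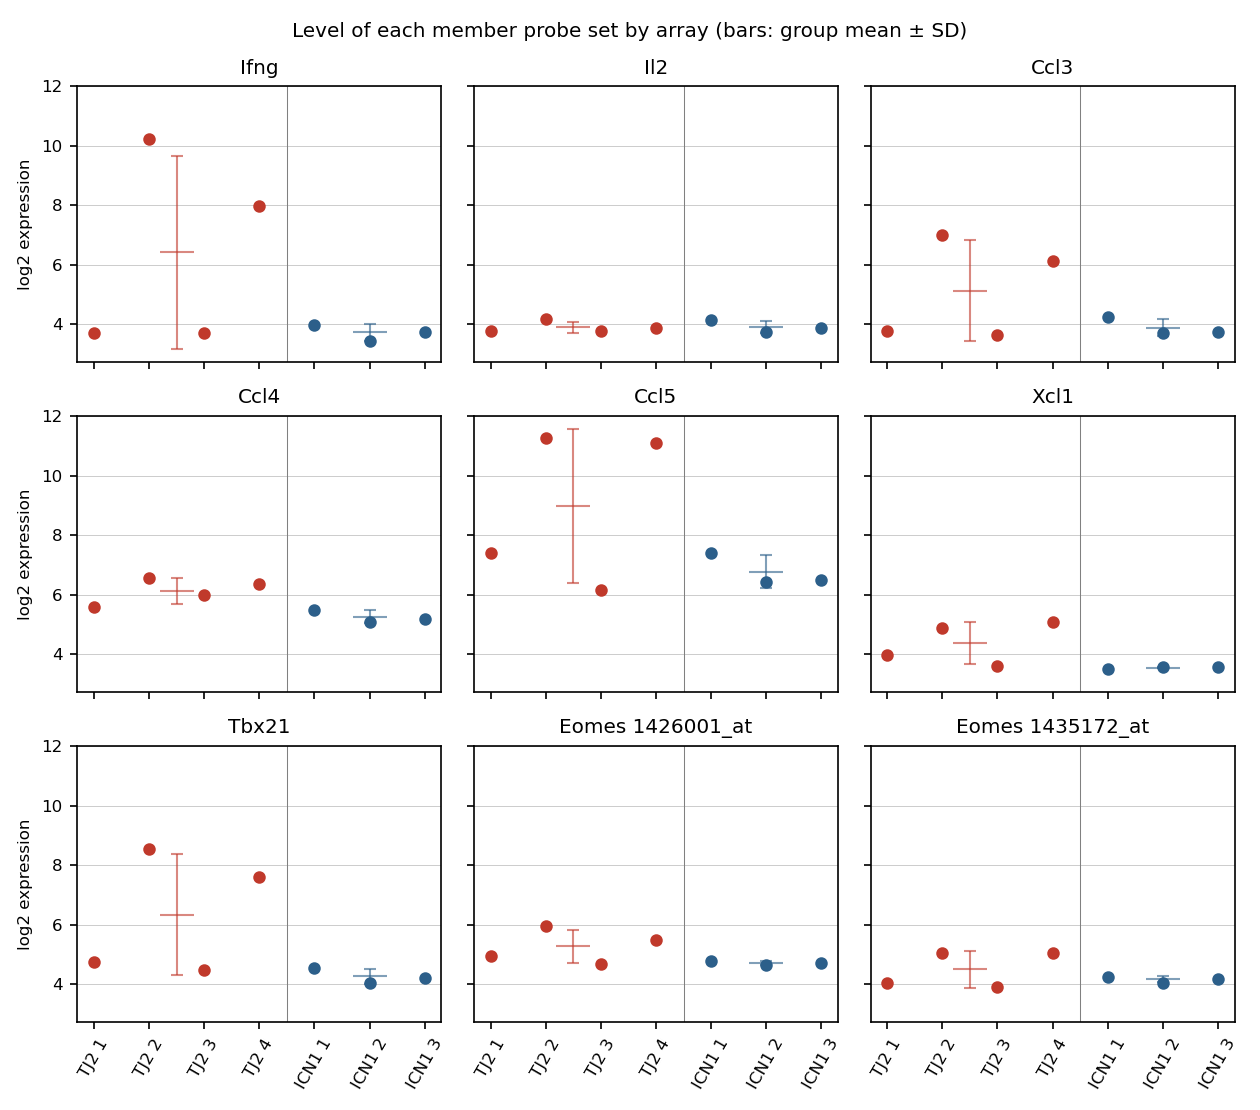
Log2 expression of each of the 9 probe sets (vertical axis) on the 4 TEL-JAK2 arrays (TJ2, red) and the 3 ICN1 arrays (blue), 1 point per array, with the group mean ± SD beside the points. TEL-JAK2 replicates 2 and 4 are the highest of the TEL-JAK2 arrays in every panel, most widely for Ifng (10.24 and 7.98) and Ccl5 (11.28 and 11.11), while Il2 stays between 3.72 and 4.17.

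Among the cytokines, Ifng, the type II interferon, showed the widest spread. It read 3.70, 10.24, 3.71 and 7.98 in TEL-JAK2 replicates 1 to 4, against 3.98, 3.43 and 3.74 in ICN1 replicates 1 to 3. Replicates 2 and 4 of TEL-JAK2 were far above every other array, and TEL-JAK2 replicates 1 and 3 lay within the ICN1 range, so the groups overlapped. The range within TEL-JAK2 was 6.54 log2 units, and 16 of 45037 probe sets had a larger SD across the TEL-JAK2 arrays. The mean was 6.41 ± 3.26 in TEL-JAK2 and 3.72 ± 0.28 in ICN1 (SD). The low arrays lay below 4.11 with no detection call used, so no linear fold is given. The log2 difference of 2.69 ± 1.58 was not called (adjusted p = 0.295).

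Il2, the T cell growth factor, read 3.76, 4.17, 3.78 and 3.87 in TEL-JAK2 replicates 1 to 4, against 4.12, 3.72 and 3.88 in ICN1 replicates 1 to 3. All 7 values lay near 4.11, and the groups overlapped. The difference was -0.01 ± 0.14 and was not called (adjusted p = 0.971). Centring each array on 4 CD3 genes, which shifts the median probe set to -0.587, moved it to -0.63 and past the threshold (adjusted p = 0.0225).

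Of the CC chemokines, which attract T cells and monocytes, Ccl5 read 7.39, 11.28, 6.15 and 11.11 in TEL-JAK2 replicates 1 to 4, against 7.41, 6.41 and 6.50 in ICN1 replicates 1 to 3. Again TEL-JAK2 replicates 2 and 4 stood above all other arrays, and replicates 1 and 3 were within or below the ICN1 range. The range within TEL-JAK2 was 5.14 (35.2-fold), with 34 probe sets of larger SD on the array. The difference of 2.21 ± 1.28 (4.63-fold) was not called (adjusted p = 0.288).

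Ccl3 read 3.75, 7.0, 3.64 and 6.12 in TEL-JAK2 replicates 1 to 4, against 4.22, 3.69 and 3.73 in ICN1 replicates 1 to 3. The same 2 TEL-JAK2 arrays were high and the other 2 were in or below the ICN1 range. The low values were again below or near 4.11. The range within TEL-JAK2 was 3.35, and the difference of 1.25 ± 0.83 was not called (adjusted p = 0.356).

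Ccl4, the gene next to Ccl3 on chromosome 11 with 0 protein-coding genes between them in RefSeq, read 5.59, 6.56, 5.99 and 6.35 in TEL-JAK2 replicates 1 to 4, against 5.49, 5.07 and 5.19 in ICN1 replicates 1 to 3. Every TEL-JAK2 array was above every ICN1 array, although TEL-JAK2 replicate 1 exceeded ICN1 replicate 1 narrowly. It was the 1 probe set called, 1.83-fold higher (0.87 ± 0.24, adjusted p = 0.0386). The call was lost without any 1 of the 7 arrays other than TEL-JAK2 replicate 1 (adjusted p from 0.0546 to 0.115), without ICN1 replicates 1 and 2 (0.179) and with CD3 centring (0.25, adjusted p = 0.417). Its range within TEL-JAK2 was 0.97.

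Ccl5 lies near this pair, with 2 protein-coding genes, Ccl9 and Ccl6, between it and Ccl3. Both of these chemokine genes, named for their position, were also highest within TEL-JAK2 on replicates 2 and 4. Ccl6 read 6.95, 10.18, 6.00 and 9.30 in TEL-JAK2 replicates 1 to 4, against 8.54, 8.42 and 6.76 in ICN1 replicates 1 to 3. Ccl9 read 6.10, 7.28, 5.65 and 7.76 in TEL-JAK2, against 6.01, 6.06 and 5.31 in ICN1. Neither was called (0.20 ± 1.03 and 0.90 ± 0.51, adjusted p = 0.918 and 0.279).

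Xcl1, lymphotactin, a C-class chemokine that attracts dendritic cells bearing Xcr1, read 3.96, 4.89, 3.60 and 5.07 in TEL-JAK2 replicates 1 to 4, against 3.51, 3.56 and 3.56 in ICN1 replicates 1 to 3. The groups did not overlap, but TEL-JAK2 replicate 3 lay close to ICN1. The ICN1 arrays were tightly grouped (SD 0.03), and the SD was 0.71 in TEL-JAK2. The difference of 0.84 ± 0.35 was not called (adjusted p = 0.149, and 0.0505 without TEL-JAK2 replicate 3).

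Tbx21 followed the same arrays. This gene of the Th1 master regulator T-bet read 4.74, 8.53, 4.48 and 7.59 in TEL-JAK2 replicates 1 to 4, against 4.54, 4.05 and 4.2 in ICN1 replicates 1 to 3. Replicates 2 and 4 of TEL-JAK2 were high, replicate 1 was just above the ICN1 arrays and replicate 3 among them. The range within TEL-JAK2 was 4.04, with 78 probe sets of larger SD on the array. The low arrays lay near 4.11 with no detection call used, so no linear fold is given. The difference of 2.07 ± 0.99 was not called (adjusted p = 0.200).

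Eomes, the related T-box factor of CD8 and NK cells, was measured by 2 probe sets with smaller differences. The brighter read 4.95, 5.95, 4.67 and 5.48 in TEL-JAK2 replicates 1 to 4, against 4.76, 4.65 and 4.72 in ICN1 replicates 1 to 3. The dimmer read 4.02, 5.03, 3.89 and 5.03 in TEL-JAK2, against 4.25, 4.05 and 4.18 in ICN1. On both, TEL-JAK2 replicates 2 and 4 were above every ICN1 array. Replicate 3 was among the ICN1 arrays on the brighter probe set and below them on the dimmer, and replicate 1 was above them on the brighter and below them on the dimmer. The differences, 0.55 ± 0.29 and 0.33 ± 0.31, were not called (adjusted p = 0.234 and 0.529), and both turned negative with CD3 centring (-0.07 and -0.29).

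The spread was the common feature of the group. In 8 of 9 probe sets, all but Il2, the SD across the TEL-JAK2 arrays exceeded that across the ICN1 arrays, which held for 46.7% of all probe sets. The difference in spread between the leukemias was not tested. The median SD in TEL-JAK2 was 0.71 for the 9 probe sets and 0.16 for all, and in ICN1 it was 0.22 and 0.17. TEL-JAK2 replicates 2 and 4 were the 2 highest of all 7 arrays in 8 of 9 probe sets, against 5.63% of all probe sets. The same held for all 4 members with a range of at least 2 log2 units (Ifng, Ccl3, Ccl5 and Tbx21). Of the 4490 probe sets with such a range on the array, it held for 8.06%. TEL-JAK2 replicates 2 and 4 were the 2 highest of the 4 TEL-JAK2 arrays in all 9 probe sets, against 18.0% of all probe sets. This pair was named after its values were seen, so such shares, here and for the lists below, describe it and test nothing. By the sex-linked transcripts above, replicate 2 carried Xist without Kdm5d and replicate 4 Kdm5d with little Xist. Within ICN1, replicate 1 was highest in 8 of 9 probe sets (29.0% of all probe sets), within a range of at most 0.99.

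**Figure D2:**
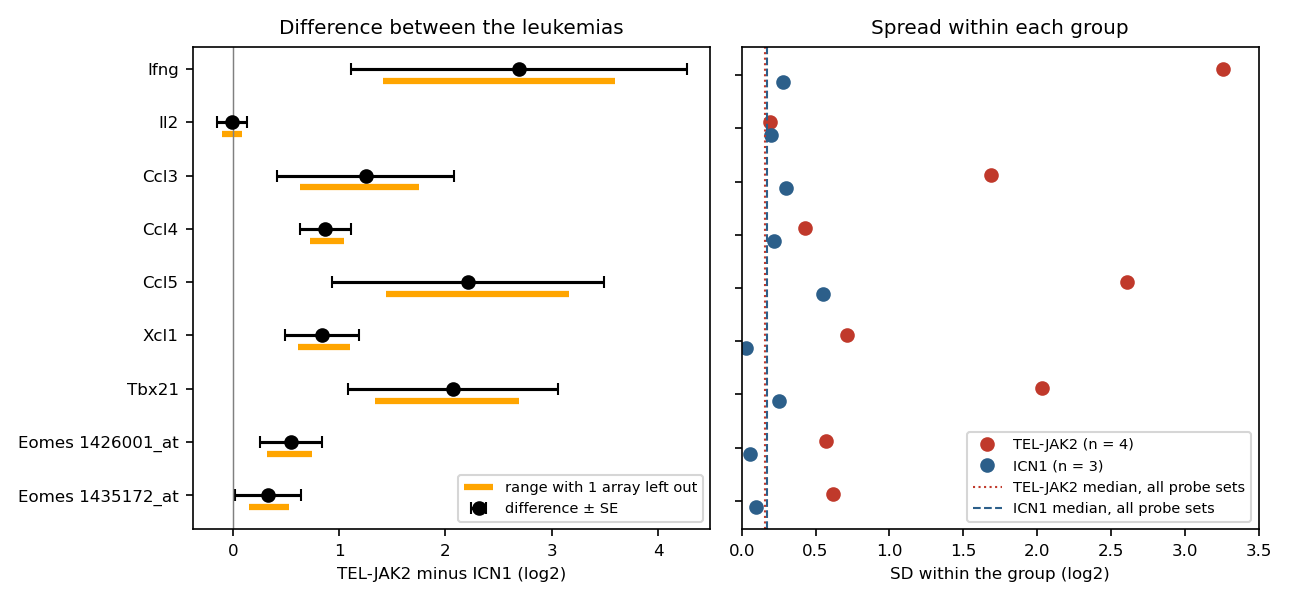
Left, the log2 difference TEL-JAK2 minus ICN1 of each probe set (point, ± SE) with the range of the difference when each of the 7 arrays was left out in turn (orange bar). Right, the SD within TEL-JAK2 (red, n = 4) and ICN1 (blue, n = 3), with the medians over all probe sets (0.16 and 0.17) as vertical lines; Ifng reaches 3.26 in TEL-JAK2 and 0.28 in ICN1.

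Genes with the most similar profile were sought for the 4 probe sets whose range over the 7 arrays was at least 2 log2 units (Ifng, Ccl3, Ccl5 and Tbx21), as the 3 genes with the smallest root mean square (RMS) difference over 7 arrays after centring each probe set on its mean. Closest to Ifng were Arg1, the arginase of the urea cycle that macrophages also induce (RMS 0.34), Ifitm1, an interferon-induced membrane protein (0.51), and Gm4951 (0.65). Arg1 read 4.07, 9.85, 4.18 and 8.72 in TEL-JAK2 replicates 1 to 4, against 4.04, 4.00 and 4.03 in ICN1 replicates 1 to 3. Arg1 was thus high on the same 2 arrays and flat on the other 5.

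Closest to Ccl3 were Fasl, the death ligand of cytotoxic cells (RMS 0.27), Cxcl10, an interferon-induced chemokine (0.28), and the granzyme gene Gzmc (0.29). Closest to Ccl5 were the chemokine gene Ccl8 (0.44), Ifitm1 (0.45) and Cxcr6, a chemokine receptor of effector T cells (0.52). Closest to Tbx21 were the guanylate-binding protein gene Gbp2b (0.27), another probe set of Cxcr6 (0.31) and the granzyme gene Gzmk (0.38). Gbp2b read 4.61, 8.86, 4.13 and 7.14 in TEL-JAK2 replicates 1 to 4, against 4.65, 4.30 and 4.24 in ICN1 replicates 1 to 3. These genes came from the whole array, and likeness over 7 arrays of 2 groups is a description only.

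**Figure D3:**
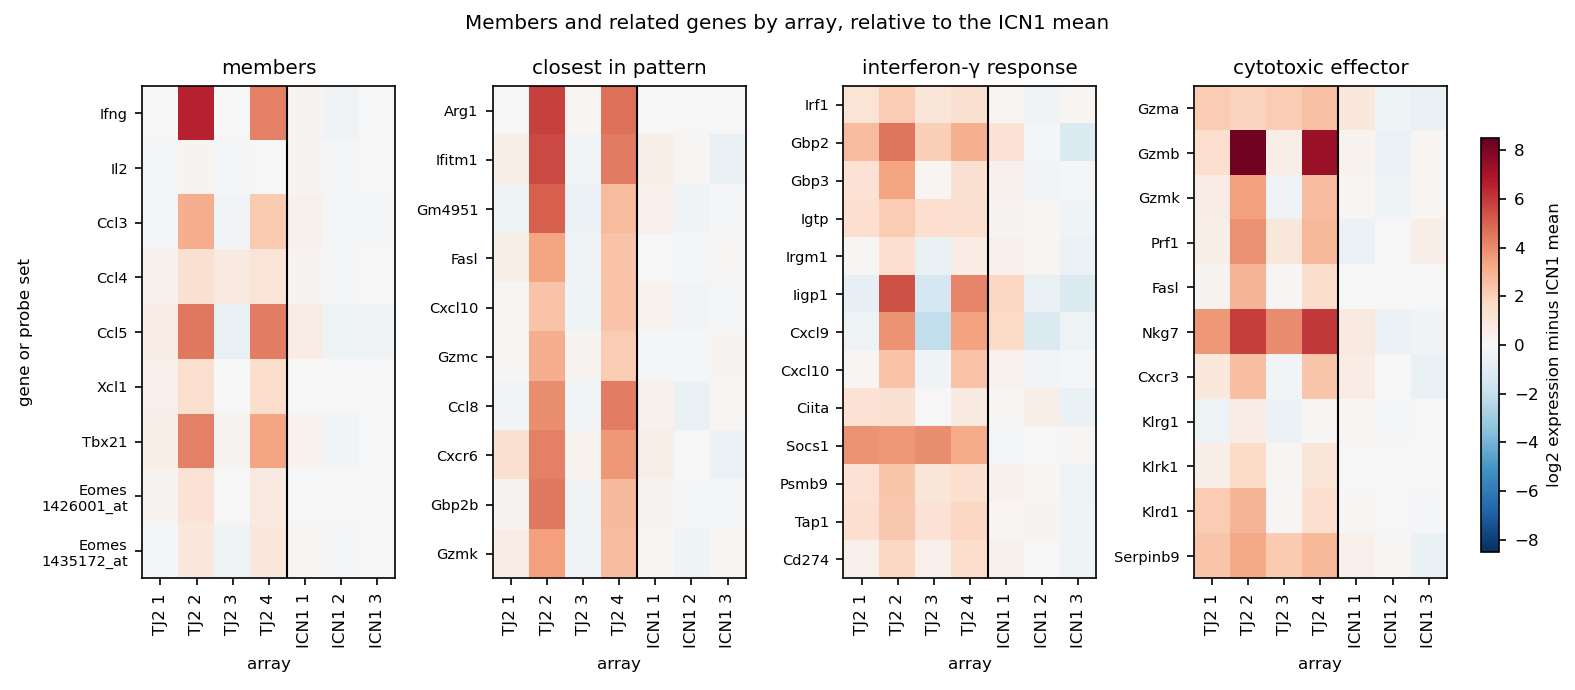
Log2 expression minus the ICN1 mean (colour, red above and blue below) on each array (horizontal, TEL-JAK2 left of ICN1) for the 9 probe sets, for the genes closest in pattern, each shown once, and for the lists of interferon-gamma response and cytotoxic effector genes. The columns of TEL-JAK2 replicates 2 and 4 are red in most rows, whereas Socs1 is similarly red on all 4 TEL-JAK2 arrays (10.12 to 10.93, ICN1 6.87 to 7.08).

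The receptors of the secreted members were compared with each gene taken by its brightest probe set. Of 7 measured, 3 rose in TEL-JAK2 and 4 were not called, with a median difference of 1.02, against 11.3% of all 18193 genes called higher, 11.7% called lower and a median of 0.044. Ifngr1, the ligand-binding chain of the interferon-gamma receptor, read 13.13, 12.94, 13.10 and 12.87 in TEL-JAK2 replicates 1 to 4, against 9.57, 10.80 and 9.58 in ICN1 replicates 1 to 3. It was high on all 4 TEL-JAK2 arrays, including those where Ifng was low (3.03 ± 0.30, adjusted p = 0.00067). Ifngr2, its signalling partner, was higher by 0.88 ± 0.16 (adjusted p = 0.00855). It was not called with CD3 centring (adjusted p = 0.249), without ICN1 replicates 1 and 2 (0.103) or from its other probe set (0.37, adjusted p = 0.213).

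Il2rb, the receptor chain shared by interleukins 2 and 15, read 8.81, 10.87, 8.31 and 10.19 in TEL-JAK2 replicates 1 to 4, against 8.13, 5.37 and 5.68 in ICN1 replicates 1 to 3. It was again highest on TEL-JAK2 replicates 2 and 4, and the groups did not overlap (3.15 ± 0.83, adjusted p = 0.0359). The call was lost when ICN1 replicate 2 or 3 or TEL-JAK2 replicate 1, 2 or 4 was left out (0.0613 to 0.112 adjusted p) and without ICN1 replicates 1 and 2 together (0.0604). Il2ra, the high-affinity chain (0.51 ± 0.49), and Ccr1, a receptor of Ccl3 and Ccl5 (1.02 ± 0.70), were not called (adjusted p = 0.528 and 0.375). The other probe set of Il2ra differed by more (1.33 ± 0.40), with overlapping groups, and was not called either (adjusted p = 0.0539). Its adjusted p was 0.000368 without ICN1 replicate 3 and 0.0902 to 0.157 without any other single array.

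Of 17 measured regulators of type 1 effector genes, 7 rose in TEL-JAK2, 0 fell and 10 were not called (median 1.08). Stat4, which relays interleukin 12 signals to Ifng, read 9.51, 10.38, 10.69 and 9.99 in TEL-JAK2 replicates 1 to 4, against 6.52, 6.80 and 5.34 in ICN1 replicates 1 to 3. It was high on all 4 TEL-JAK2 arrays (3.92 ± 0.40, adjusted p = 0.000807). Il12rb1, a chain of the interleukin 12 receptor (1.94 ± 0.29), Bach2, a repressor of effector programmes (2.96 ± 0.40), and Nfatc2, a calcium-regulated activator of cytokine genes (2.46 ± 0.37), were also higher (adjusted p = 0.00364, 0.00241 and 0.00397). Of 5 further probe sets of Nfatc2, 1 was called, and of 2 of Bach2, 1 was called. Gata3, the Th2 regulator (0.62 ± 0.50), and Stat5b (0.15 ± 0.21) were not called (adjusted p = 0.456 and 0.675). In 7 of the 17 genes TEL-JAK2 replicates 2 and 4 were the 2 highest arrays, against 6.28% of all genes. Beside the 7 of 17 called higher, 11.3% of all genes were.

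Of 13 measured interferon-gamma response genes, 6 were higher, 0 lower and 7 not called (median 1.5), against 11.3% of all genes called higher. The feedback inhibitor Socs1 (3.64 ± 0.19), the GTPase Igtp (1.59 ± 0.23), the peptide transporter Tap1 (1.68 ± 0.26) and the transcription factor Irf1 (1.42 ± 0.29) were higher (adjusted p = 4.14e-05, 0.00319, 0.00414 and 0.0132). Irf1 was not called without ICN1 replicates 1 and 2 (adjusted p = 0.14). Of 3 further probe sets of Tap1, 1 was called. The count of 6 called was 4 without ICN1 replicate 2 or 3. In 10 of the 13 genes TEL-JAK2 replicates 2 and 4 were the 2 highest arrays.

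Cxcl9, a chemokine induced by interferon-gamma, read 6.94, 11.18, 5.26 and 10.74 in TEL-JAK2 replicates 1 to 4, against 8.99, 6.14 and 6.89 in ICN1 replicates 1 to 3. Iigp1, an interferon-inducible GTPase named after its values were seen, read 5.62, 11.75, 4.85 and 10.47 in TEL-JAK2, against 8.13, 5.69 and 5.20 in ICN1. For both, TEL-JAK2 replicates 2 and 4 were highest, ICN1 replicate 1 came next and the groups overlapped. Neither was called (1.19 ± 1.52 and 1.83 ± 1.78, adjusted p = 0.649 and 0.539), nor was the GTPase Irgm1 (0.39 ± 0.45, adjusted p = 0.609).

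Of 11 cytotoxic effector genes, 3 were higher, 0 lower and 8 not called (median 1.64), and 5 were higher without TEL-JAK2 replicate 3. The share called higher over all genes was 11.3%. Nkg7, a granule membrane protein, was higher by 4.90 ± 0.65, Serpinb9, an inhibitor of granzyme B, by 2.64 ± 0.31 and Gzma by 2.18 ± 0.35 (adjusted p = 0.00235, 0.00135 and 0.0049). Fasl (1.18 ± 0.65) and Klrg1, an inhibitory receptor of effector cells (-0.05 ± 0.26), were not called (adjusted p = 0.258 and 0.925). Gzmb, named after its values were seen, read 6.51, 13.28, 5.67 and 12.41 in TEL-JAK2 replicates 1 to 4, against 5.38, 4.63 and 5.28 in ICN1 replicates 1 to 3. It was among the 8 not called. In 8 of the 11 genes TEL-JAK2 replicates 2 and 4 were the 2 highest arrays.

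Of 13 other T cell cytokine genes measured, 2 were higher and 11 not called (median 0.07), near the 11.3% of all genes called higher, and 4 had an unadjusted p under 0.05. The 2 were the lymphotoxin genes Ltb (3.30 ± 0.28) and Lta (2.71 ± 0.40, adjusted p = 0.000364 and 0.00372), and Lta was not called without ICN1 replicates 1 and 2 (adjusted p = 0.0743). The Th2 cytokines Il4 (-0.08 ± 0.27) and Il5 (0.00 ± 0.10) were not called (adjusted p = 0.867 and 0.986). In 2 of the 13 genes TEL-JAK2 replicates 2 and 4 were the 2 highest arrays.

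Of 25 other chemokine genes 0 were higher, 2 lower and 23 not called (median 0.28), against 11.3% of all genes called higher and 11.7% lower. The 2 were the platelet chemokines Ppbp (-5.67 ± 0.69, adjusted p = 0.00161) and Pf4 (-2.24 ± 0.62, adjusted p = 0.0417). The call of Pf4 was lost when ICN1 replicate 1 or 2 or TEL-JAK2 replicate 1, 2 or 3 was left out (0.0505 to 0.106 adjusted p) and without ICN1 replicates 1 and 2 together (0.213). Ccl24, an eosinophil chemokine, was not called (0.28 ± 0.74, adjusted p = 0.839). A dimmer probe set of Cxcl12 was called lower (-1.07 ± 0.27, adjusted p = 0.031), and another was not (0.18, adjusted p = 0.467). That call was lost when ICN1 replicate 1 or 2 or TEL-JAK2 replicate 1, 2 or 3 was left out (0.0752 to 0.0875 adjusted p). In 14 of the 25 genes TEL-JAK2 replicates 2 and 4 were the 2 highest arrays.

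Among 13 other T-box factors, which act mostly in development, 1 was higher and 12 not called (median 0.08). Over all genes 11.3% were called higher. Tbx6, a factor of the embryonic mesoderm, differed by 0.86 ± 0.20 (adjusted p = 0.0215), which was lost without ICN1 replicates 1 or 3 (adjusted p = 0.0719 and 0.0652), without ICN1 replicates 1 and 2 together (0.066) and with CD3 centring (0.275). Tbx2 (-0.03 ± 0.10) and Tbx22 (0.00 ± 0.09) were not called (adjusted p = 0.864 and 0.986). In 1 of the 13 genes TEL-JAK2 replicates 2 and 4 were the 2 highest arrays.

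Markers of cells that could carry the effector transcripts were followed across the arrays. By limma 0 of 5 measured NK cell markers were called (0 at an unadjusted p under 0.05), against 23.0% of all genes called in either direction. With 5 genes, a count of 0 is near that share. The mean level of the list was 4.03, 4.25, 4.00 and 4.29 in TEL-JAK2 replicates 1 to 4, against 3.96, 4.03 and 3.69 in ICN1 replicates 1 to 3. Ncr1, the defining NK receptor, read 4.33 to 4.61 in TEL-JAK2 and 4.01 to 4.45 in ICN1, against 4.11 for the lowest 25% of all values. Cd244a, the 1 NK marker of the list that reached above 6, read 5.18, 6.32, 4.86 and 6.20 in TEL-JAK2, against 5.13, 5.30 and 4.48 in ICN1. Another probe set of Cd244a read 4.37, 6.72, 3.97 and 5.98 in TEL-JAK2, against 4.49, 4.45 and 3.45 in ICN1. Its range within TEL-JAK2 was 2.75, and it was not called (limma adjusted p = 0.305). Both probe sets were highest on TEL-JAK2 replicates 2 and 4. These were the 2 highest TEL-JAK2 arrays for 2 of the 5 NK markers.

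Of 11 macrophage markers 5 were lower in TEL-JAK2 and 6 not called (median -1.86), against 11.7% of all genes called lower. All 11 were highest on TEL-JAK2 replicates 2 and 4 among the TEL-JAK2 arrays, against 19.7% of all genes, and the mean level of the list was 7.14, 8.47, 6.39 and 8.66 in TEL-JAK2 replicates 1 to 4. In ICN1 replicates 1 to 3 it was 10.25, 10.01 and 8.89, above every TEL-JAK2 array, and Ifng on these ICN1 arrays was at 3.98 or lower. The complement gene C1qa read 8.03, 10.24, 7.07 and 10.17 in TEL-JAK2, against 10.82, 10.62 and 9.45 in ICN1. Of the 11 macrophage markers 1 was called without ICN1 replicate 1 or 2, without both or without TEL-JAK2 replicate 1, and 2 without TEL-JAK2 replicate 3. The part of macrophages in the effector genes within TEL-JAK2 was not tested.

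T-lineage markers were higher for 7, lower for 1 and not called for 3 of 11. Their list means were 12.01 to 12.35 in TEL-JAK2 and 11.25 to 11.83 in ICN1. For this and the next lists, 11.3% of all genes were called higher and 11.7% lower. The T-lineage count of 8 called was 5 without ICN1 replicate 2, TEL-JAK2 replicate 2 or 3 or ICN1 replicates 1 and 2 together, and 4 without TEL-JAK2 replicate 1. Of the 11 T-lineage markers, 1 had TEL-JAK2 replicates 2 and 4 as the highest of the TEL-JAK2 arrays. Dendritic cell markers had 0 of 7 called by limma, and 1 at an unadjusted p under 0.05 or without ICN1 replicates 1 and 2 (7.18 to 8.32 in TEL-JAK2 and 6.17 to 7.38 in ICN1), and neutrophil markers 5 of 8 lower (5.25 to 5.67 in TEL-JAK2 and 6.48 to 8.61 in ICN1). The neutrophil count was 2 without ICN1 replicate 1 or TEL-JAK2 replicate 1, 2 or 3, and 3 without TEL-JAK2 replicate 4 or ICN1 replicates 1 and 2 together. B-lineage markers had 1 of 7 higher (5.77 to 6.85 in TEL-JAK2 and 5.05 to 6.54 in ICN1), and 0 without ICN1 replicate 1 or 2, without both or without TEL-JAK2 replicate 2 or 3. By limma, mast cell and basophil markers had 0 of 5 called, and 0 at an unadjusted p under 0.05 (4.2 to 4.30 in TEL-JAK2 and 4.11 to 5.38 in ICN1). The mast cell protease gene Cpa3, picked from this list by its value, read 9.42 in ICN1 replicate 1, against 4.10 to 4.75 on the other 6 arrays. Further probe sets of Ms4a2 and Tpsb2, also on the list, read 3.68 and 3.56 in ICN1 replicate 1, within the range of the other arrays. The part of these cells in the values was not tested.

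**Figure D4:**
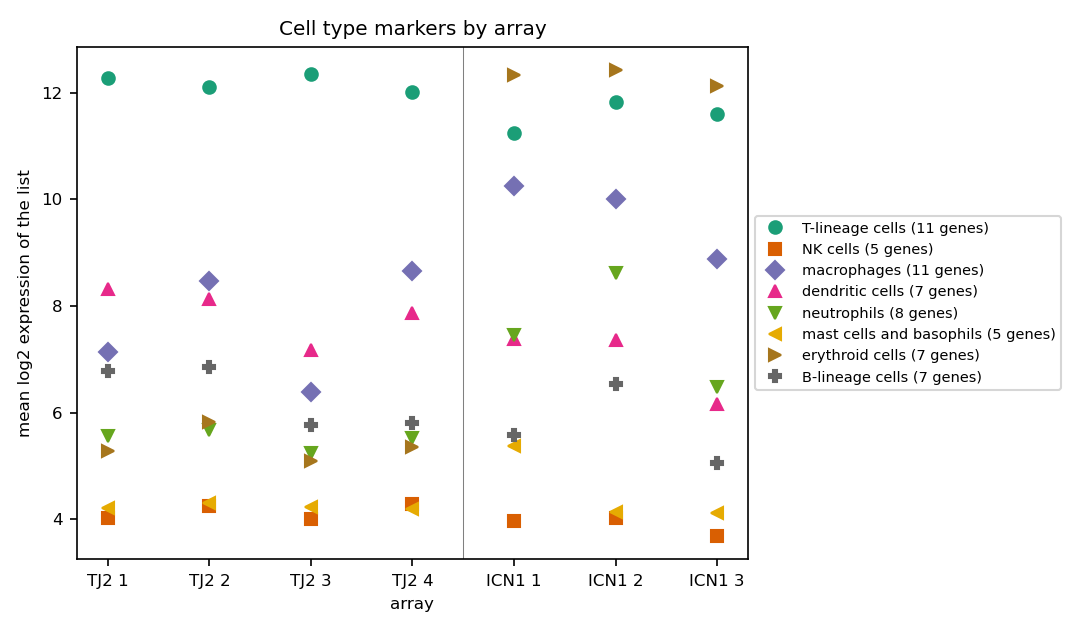
Mean log2 expression of 8 lists of cell type markers (vertical axis) on the 4 TEL-JAK2 and 3 ICN1 arrays (horizontal axis), 1 symbol per list and array. Macrophage markers (diamonds) are higher on TEL-JAK2 replicates 2 and 4 (8.47 and 8.66) than on replicates 1 and 3 (7.14 and 6.39) and highest in ICN1, and NK markers (squares) stay between 3.69 and 4.29.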

How the data were processed

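RNA of 7 leukemic suspensions, 4 TEL-JAK2 and 3 ICN1, was measured on Affymetrix arrays. The authors deposited log2 values, 1 per probe set and array, credited to RMA per the submitters' processing notes (settings not given in the sources used here). Values ran from 2.57 to 14.86. RMA brings arrays to a common distribution and compresses folds near background. The number of arrays limits the precision. Detection calls were not used here. Of 45037 probe sets, 34945 had 1 symbol in the platform annotation, 932 several and 9160 none; 34741 matched RefSeq (GRCm38.p6) by gene ID.

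All probe sets were fitted with limma 3.58.1 in R 4.3.3 (lmFit, eBayes, two-sided), with Benjamini-Hochberg adjustment over 45037 probe sets and calls under 0.05. List genes were taken by their brightest probe set from this fit, and each list's mean level is its genes' mean per array. The scripts were tested on simulated data. Figures used matplotlib 3.10.9. Per list, the called genes with the 4 smallest adjusted p and the 2 with the largest were named; of marker lists only counts, mean levels and single markers are given, and of these C1qa, Cd244a and Cpa3 were chosen after their values were seen. Other exceptions are marked. Members, lists and alternatives were chosen with earlier results of these data known.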

Additional observations from a re-analysis of the deposited data

Results flagged for a closer look

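Of 170 probe sets of the members and lists, 14 had 1 TEL-JAK2 array far from the other 3, with a gap to the nearest array, divided by the whole range, above Dixon's critical value. Chance flags about 1 in 20 such groups, and probe sets on the same arrays are not independent. None was a member. TEL-JAK2 replicate 4 stood apart in 7. It was low for Xist (ratio 0.971), high for the Y-linked Eif2s3y (0.984), Kdm5d (0.923) and Uty (0.865) and high for Il12rb2, a chain of the interleukin 12 receptor (0.853). It was low for Ltb (0.908: 13.07, 13.05, 13.14 and 12.06 in replicates 1 to 4) and Nfatc2 (0.857: 10.39, 10.27, 10.23 and 9.24). TEL-JAK2 replicate 3 was low for the dendritic markers Itgax (0.926: 7.49, 7.59, 5.96 and 7.62) and Flt3 (0.918: 7.01, 7.06, 6.34 and 7.0) and for the chemokine gene Ccl25 (0.863). TEL-JAK2 replicate 2 was high for Igtp (0.874: 11.14, 11.82, 11.10 and 11.04) and low for the cytokine gene Il3 (0.878). TEL-JAK2 replicate 1 was high for the NK marker Klra8 (0.845) and low for Tbx20 (0.876), each with a range under 0.2 log2 units.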

How the results depend on the processing

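Of 180 recomputed differences of the 9 probe sets, 161 kept their direction and side of the threshold. With CD3 centring both Eomes probe sets turned (-0.07 and -0.29). Il2 turned to 0.01 without ICN1 replicates 1 and 2 together, 0.09 without ICN1 replicate 1 and 0.03 without TEL-JAK2 replicate 1 or 3, within -0.1 to 0.09 when 1 array was left out. The count of members called was 1, and 0 with array weights, a test against 1.5-fold, unequal variances, an adjusted p under 0.01 or without ICN1 replicates 1 and 2. With 1 array left out it was 0 to 1. Under CD3 centring the 1 call was Il2, lower, in place of Ccl4. All probe sets called numbered 8832, against 4380 with the brightest probe set and 4329 with the mean of probe sets per gene (fewer features tested), 31563 with CD3 centring (1558 higher, 30005 lower, against 4172 and 4660), 2196 against 1.5-fold, 2266 with unequal variances, 4152 under 0.01 and 5813 without ICN1 replicates 1 and 2 (fewer arrays). With 1 array left out they numbered 6175 to 8563. List counts moved in the same settings. Receptors called went from 3 to 1 against 1.5-fold and 0 with unequal variances, and regulators from 7 to 4 and 2. Interferon-gamma response genes went from 6 to 3 in both settings. Cytotoxic genes stayed at 3 against 1.5-fold and were 2 with unequal variances. Leaving out probe sets below the median level kept 2 members, Ccl4 and Ccl5, and the offset for linear values was not needed. The cause of the other changes was not tested. No paired analysis was possible because the labels give no shared replicate numbers. Without a detection call, signal over background limits the values of Il2, Xcl1 and the dimmer Eomes probe set. The same holds for the low arrays of Ifng, Ccl3 and Tbx21.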
